A study of Mus musculus with 2 samples.

Results

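The 10 genes described here encode Rab GTPases, SNARE proteins and their partners that carry secretory granules to the plasma membrane and fuse them with it. They are Rab3d, Rab27a, Rab27b, Vamp2, Vamp8, Stx3, Snap23, Snap25, Stxbp2 and Syt1, and they were chosen by name, through the mouse gene annotation, from the 43346 gene rows of the deposited tables. All 10 were found, each in 1 row. The tissue was the pancreas of a single mouse of the inbred strain C57BL/6J, an adult female aged 10 weeks, without a treatment named in the labels. Polyadenylated RNA of this 1 tissue sample was sequenced in 2 technical libraries. Replicate 2 dates to May 2015, and the labels date no other library. The libraries form 1 group, so the data hold a level for each gene and its technical spread, and no comparison between conditions.

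Rab GTPases of the Rab3 and Rab27 subfamilies sit on secretory granules in their GTP-bound form and recruit effectors that tether the granule to the cell cortex. Fusion follows when an R-SNARE on the granule (a VAMP) zippers with a syntaxin and a SNAP-25-type protein on the plasma membrane, guided by a Sec1/Munc18 protein, and in neurons and endocrine cells a synaptotagmin makes the last step respond to calcium. The acinar cell, which releases zymogen granules of digestive enzymes, and the islet cell, which releases hormones, are known to use related but partly different members of these families. Here Rab3d, Rab27b, Vamp8, Stx3, Snap23 and Stxbp2 were taken as the acinar forms, Rab27a, Snap25 and Syt1 as the neuronal or islet forms, and Vamp2, which both cell types use, as shared. This sorting is from background knowledge and not from these data.

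Expected counts came to 9797569 in total for replicate 2 and to 9441559 for replicate 1. The libraries differed in composition: the non-coding gene Gm42418 took 42.8% of the counts in replicate 2 and 16.9% in replicate 1, while mitochondrial genes took 3.17% in replicate 2 and 17.6% in replicate 1. The markers of the labelled tissue were present: all 14 acinar marker genes lay at 1 TPM or more in both libraries and summed to 162385 TPM in replicate 2 and 142988 TPM in replicate 1. TPM is a level per length and within the library's total. The 17 islet markers summed to 23799 TPM in replicate 2 and 22243 TPM in replicate 1, and all were at 1 TPM or more in both. The 13 neuron and glia markers summed to 15.1 and 23.4 TPM in these libraries, with 4 of them at 1 TPM or more in both and Rbfox3, a marker of mature neurons, listed at 0. Vamp8, Snap23 and Stxbp2 are also known from mast cells and other leukocytes. The 6 mast cell markers summed to 4.18 TPM in replicate 2 and 7.33 TPM in replicate 1; 2 of them were at 1 TPM or more in both and Fcer1a, a subunit of the IgE receptor, was listed at 0. The 8 leukocyte markers summed to 87.3 and 95.6 TPM, nearly all of it from Lyz2 (82.66 and 86.42 TPM). Their part in the levels of these genes was not tested. The 7 duct, 7 endothelium and 5 smooth muscle markers summed to 118, 265 and 119 TPM in replicate 2 and to 148, 313 and 173 TPM in replicate 1. In such bulk tissue, fewer cells of a type and less RNA per cell cannot be told apart.

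Of the 10 genes, 9 were at 1 TPM or more in both libraries, and the levels ran over about 2 orders of magnitude between Stxbp2, at 46.8 ± 2.72 TPM, and Syt1, at 0.370 ± 0.156 TPM (SD over n = 2 technical libraries). Intervals below are exact Poisson intervals at 95% and cover counting error only. Reads without molecular identifiers are not independent molecules, so the intervals can be too narrow even for that error. They also take the effective length as fixed, which for Rab27b was 4072 bases in replicate 2 and 3322 bases in replicate 1. For scale, 9964 protein-coding genes reached 1 TPM in both libraries, and their median level was 4.67 TPM.

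**Figure D1:**
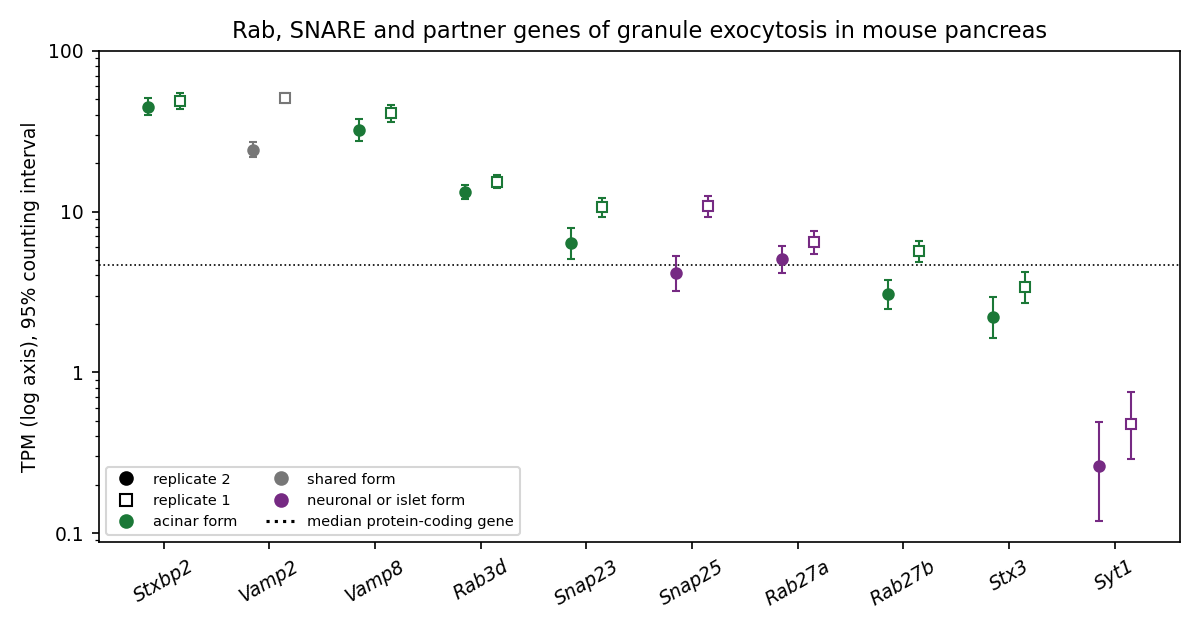
Level of each gene in TPM (log axis) in replicate 2 (filled circles, left) and replicate 1 (open squares, right), with 95% counting intervals; colours mark the acinar, shared and neuronal or islet forms, and the dotted line is the median protein-coding gene at 4.67 TPM. All 10 genes have a lower TPM in replicate 2, and Syt1 stands apart at the bottom, at 0.26 TPM in replicate 2 and 0.48 TPM in replicate 1.

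Of the 3 Rab GTPases among the 10 genes, Rab3d, the Rab3 isoform of zymogen granules, had the highest level. Rab3d (chr9:21907491-21918192, minus strand, mm10) had 13.25 TPM in replicate 2 (11.9 to 14.7, 368 counts) and 15.35 TPM in replicate 1 (14.0 to 16.8, 474 counts). Its intervals overlap, and it ranked 1610 among the 9964 protein-coding genes. Rab27a, the Rab27 isoform of islet and many other granules (chr9:73044854-73097629, plus strand), had 5.08 TPM in replicate 2 (4.16 to 6.14, 107 counts) and 6.43 TPM in replicate 1 (5.46 to 7.53, 155 counts). Rab27b, the isoform described on zymogen granules (chr18:69979131-70141605, minus strand), had 3.06 TPM in replicate 2 (2.47 to 3.74, 94 counts) and 5.65 TPM in replicate 1 (4.82 to 6.58, 164 counts). The Rab27b intervals of the libraries did not overlap, whereas those of Rab27a did. With the scaling between libraries used below, the log2 ratio of Rab27b, replicate 2 over replicate 1, was -0.32 (-0.70 to 0.05). That interval includes equal levels. A processed pseudogene, Gm27186, overlaps 149 exon bases of Rab27a on the same strand and had 0 counts in both libraries.

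The R-SNAREs were higher than the plasma membrane SNAREs. Vamp8, the endobrevin gene of regulated secretion in exocrine cells (chr6:72385223-72390703, minus strand), had 32.21 TPM in replicate 2 (27.6 to 37.4, 173 counts) and 40.92 TPM in replicate 1 (36.2 to 46.1, 271 counts). Vamp2, the synaptobrevin gene used by neurons, islets and acinar cells (chr11:69088490-69092384, plus strand), had 24.27 TPM in replicate 2 (21.7 to 27.1, 317 counts) and 50.97 TPM in replicate 1 (47.5 to 54.7, 786 counts). Vamp8 was thus the higher of the pair in replicate 2 and Vamp2 in replicate 1, and Vamp2 had the widest spread between libraries in TPM, with an SD of 18.9. Both ranked high among protein-coding genes, Vamp2 at 544 and Vamp8 at 558.

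Among the SNAREs of the plasma membrane, Snap23, the widely expressed SNAP-25 homologue (chr2:120567671-120601255, plus strand), had 6.35 TPM in replicate 2 (5.07 to 7.86, 84 counts) and 10.61 TPM in replicate 1 (9.24 to 12.1, 216 counts). Snap25, its neuronal and endocrine counterpart (chr2:136713453-136782428, plus strand), had 4.14 TPM in replicate 2 (3.18 to 5.30, 63 counts) and 10.79 TPM in replicate 1 (9.30 to 12.4, 188 counts). Snap25 was therefore the most unequal of the 10 between libraries, and both homologues sat at nearly the same level in replicate 1. Stx3, a syntaxin of zymogen granules and apical membranes (chr19:11775118-11819403, minus strand), was lower, at 2.21 TPM in replicate 2 (1.63 to 2.92, 49 counts) and 3.39 TPM in replicate 1 (2.71 to 4.19, 85 counts).

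Stxbp2, which encodes the Munc18-2 protein that binds Stx3 and related syntaxins (chr8:3630955-3643644, plus strand), had 44.9 TPM in replicate 2 (39.6 to 50.7, 260 counts) and 48.74 TPM in replicate 1 (43.6 to 54.3, 327 counts). Syt1, the calcium sensor of fast neurotransmitter release (chr10:108497650-109010982, minus strand), had 0.26 TPM in replicate 2 (0.119 to 0.494, 9 counts) and 0.48 TPM in replicate 1 (0.289 to 0.750, 19 counts). The deposited posterior mean TPM of Syt1 was 0.77 in replicate 2 and 0.99 in replicate 1, above these intervals. That of Snap23, at 7.88 and 12.8, also lay above its intervals. The counts of Syt1 are too few to order it more finely than below all the others. By mean TPM the order was Stxbp2, Vamp2, Vamp8, Rab3d, Snap23, Snap25, Rab27a, Rab27b, Stx3 and Syt1. Of the 9 steps between neighbours, 6 lay within the spread of the libraries, and the 3 that did not were Vamp8 over Rab3d, Rab3d over Snap23 and Stx3 over Syt1.

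The acinar forms, which are 6 of the 10 genes, held 75.1% of the summed TPM in replicate 2 and 64.5% in replicate 1. Vamp2 held 17.9% and 26.4% in these libraries, and Rab27a, Snap25 and Syt1 together held 6.98% and 9.16%. The mean acinar share was 69.8 ± 7.53% (SD over the 2 libraries), and Stxbp2 was its largest single contributor. It came to 55.0% when each gene's counts were divided by its longest complete coding transcript and to 60.1% over complete coding transcripts only.

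The level of Stxbp2 rested on short transcript models. The annotation lists 15 transcripts for it, and those under 800 bases held 78.1% of its TPM but 33.1% of its counts in replicate 2, and 75.4% of its TPM but 34.6% of its counts in replicate 1. Models with a retained intron held 58.3% of its TPM in replicate 2 and 75.4% in replicate 1. Stxbp2-207, the one transcript annotated with a complete coding region, held 6.11 TPM in replicate 2 and 4.04 TPM in replicate 1, or 13.6% and 8.29%. Stxbp2-201, a long coding model tagged as incomplete, held 3.71 TPM in replicate 2 and 7.95 TPM in replicate 1. The 2 long models together therefore held most of the counts and a minority of the TPM.

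The shortest model shows how this arises in the arithmetic of TPM. Stxbp2-214 is 219 bases long and was given 5.09 counts in replicate 2 and 5.97 counts in replicate 1, which made 9.68 TPM and 10.92 TPM, or 21.6% and 22.4% of the gene. Its sequence in GENCODE M21 (GRCm38 chr8:3635416-3635719, plus strand, spliced) follows, with the 30 bases that lie in an intron of Stxbp2-207 in capitals and the 189 bases shared with that transcript's exons in lower case. 
Stxbp2-214: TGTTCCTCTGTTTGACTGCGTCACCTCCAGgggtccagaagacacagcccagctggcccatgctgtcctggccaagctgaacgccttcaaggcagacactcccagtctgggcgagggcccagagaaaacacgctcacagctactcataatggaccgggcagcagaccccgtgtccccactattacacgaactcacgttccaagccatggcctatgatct
The intron bases are thus the only ones of this model that Stxbp2-207 lacks. Divided instead by the effective length of Stxbp2-207, the same gene counts gave 12.5 TPM in replicate 2 and 13.6 TPM in replicate 1. When each gene was treated so, Stxbp2 took place 4 of the 10 and Vamp2 came first, at 20.5 TPM in replicate 2 and 44.1 TPM in replicate 1. Of 7606 protein-coding genes with a mean of 50 counts or more, 12.0% had under 50% of their TPM in complete coding transcripts in both libraries, and 1.53% were at or below the Stxbp2 shares. The median gene held 95.6% of its TPM in such transcripts in replicate 2 and 98.4% in replicate 1.

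**Figure D2:**
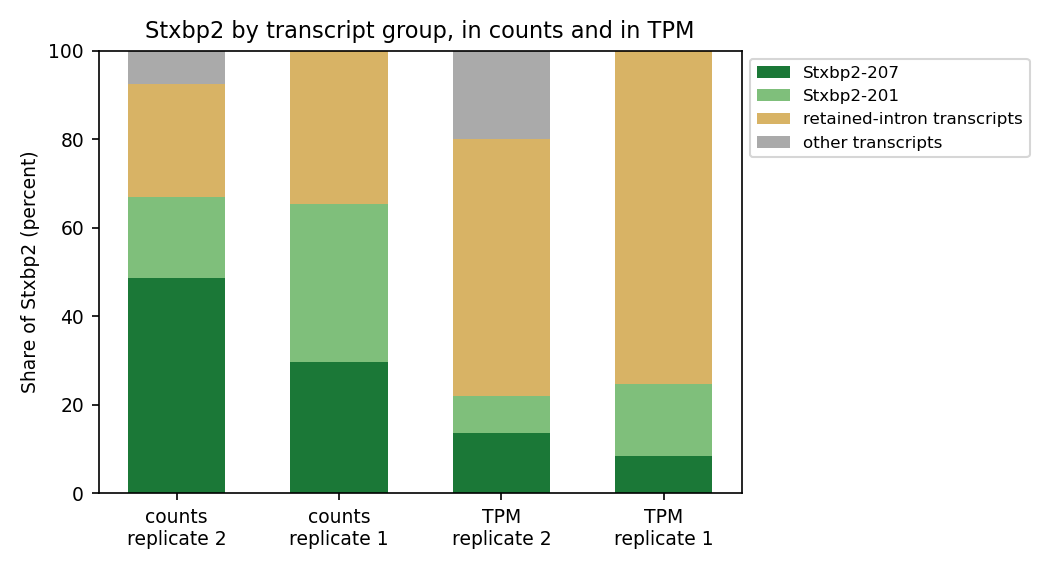
Share of Stxbp2 (percent) in its expected counts and in its TPM, for replicate 2 and then replicate 1, split into the 2 long coding transcripts, the retained-intron transcripts and the rest. Retained-intron transcripts hold 25.7% of the counts in replicate 2 and 34.6% in replicate 1, against 58.3% and 75.4% of the TPM.

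Transcripts of the other 9 genes were mostly complete coding ones, with 89.6% or more of the TPM of each gene in both libraries, except for Snap23, which had 62.9% in replicate 2 and 90.2% in replicate 1. For Snap23 in replicate 2, 37.1% of the TPM but 10.2% of the counts lay in models under 800 bases. Rab27b spread over 3 complete coding transcripts. Rab27b-203, with 6891 bases, held 35.5% of the gene's TPM in replicate 2 and 17.7% in replicate 1.

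Snap25 is spliced with 1 of 2 mutually exclusive exons, the upstream one giving SNAP-25a and the downstream one SNAP-25b, and the 2 annotated coding transcripts each carry one of them. Snap25-201, with the downstream exon, held 4.05 TPM in replicate 2 (59.91 estimated counts) and 10.24 TPM in replicate 1 (174.76 counts), or 97.8% and 94.9% of the gene. Snap25-202, with the upstream exon, was given 0 counts in replicate 2 and 2.06 counts in replicate 1. The share also depends on the 3′ end, because the last exon is 1354 bases long in Snap25-201 and 277 bases long in Snap25-202. The exons are shown because they are what tells the forms apart, read from GENCODE M21 on GRCm38 in the sense direction, at chr2:136770057-136770174 for Snap25-201 and chr2:136769743-136769860 for Snap25-202, with the bases that differ in capitals.
Snap25-201: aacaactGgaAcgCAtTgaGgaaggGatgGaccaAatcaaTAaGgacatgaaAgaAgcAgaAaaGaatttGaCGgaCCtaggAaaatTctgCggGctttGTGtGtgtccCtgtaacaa
Snap25-202: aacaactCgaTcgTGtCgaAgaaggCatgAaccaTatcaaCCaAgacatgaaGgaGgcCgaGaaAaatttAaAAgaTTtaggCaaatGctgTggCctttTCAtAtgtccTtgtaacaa
Of their 118 bases 31 differ, which leaves 73.7% identical, and 9 of the 38 whole codons code for another residue.

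Stx3 likewise has alternative exons of equal length. Stx3-202 held 1.57 TPM in replicate 2 and 2.41 TPM in replicate 1, or 71.0% and 71.3% of the gene, and Stx3-203 held 0.41 TPM and 0.97 TPM, or 18.6% and 28.7%. The posterior SD of the Stx3-203 count was 3.61 on 7.17 counts in replicate 2 and 4.53 on 19.53 counts in replicate 1, so the difference between the shares is within the uncertainty of the estimate. One of the 2 coding exons by which these models differ lies at chr19:11783026-11783136 for Stx3-202 and chr19:11782800-11782910 for Stx3-203, on the minus strand and written in the sense direction, with the differing bases in capitals.
Stx3-202: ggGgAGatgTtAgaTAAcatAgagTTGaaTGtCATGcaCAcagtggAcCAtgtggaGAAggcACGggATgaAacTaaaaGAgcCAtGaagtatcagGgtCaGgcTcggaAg
Stx3-203: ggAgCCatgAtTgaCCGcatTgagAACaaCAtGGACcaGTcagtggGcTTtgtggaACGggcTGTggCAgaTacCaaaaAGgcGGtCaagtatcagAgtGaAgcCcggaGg
These exons differ at 43 of 111 bases and in 19 of 37 residues, so they are less alike (61.3% identical) than the Snap25 pair.

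Acinar forms were next set against a close counterpart within the same library, as a ratio of TPM, which is per length and free of the scaling between libraries. Of the 6 pairs, 3 are made of the 10 genes alone, 2 take their counterpart from outside them, and 1 is a pair of Rab27 effectors.

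Rab3d exceeded Rab3a, the isoform of synaptic and endocrine granules, by nearly the same factor in both libraries. The ratio was 2.01 in replicate 2 (1.53 to 2.69), where Rab3a had 6.58 TPM, and 2.05 in replicate 1 (1.62 to 2.63), where it had 7.48 TPM. This was the most even of the 6 pairs, with a mean log2 ratio of 1.02 ± 0.02, and it lay between 1.00 and 1.17 under every alternative length or value tried.

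Rab27b lay below Rab27a in both libraries, at a ratio of 0.602 in replicate 2 (0.452 to 0.802) and 0.879 in replicate 1 (0.701 to 1.10). The interval of replicate 1 includes equal levels. The size of the gap depended on the length used, since the mean log2 ratio of -0.46 ± 0.39 came to -1.21 per base of the longest complete coding transcripts. The acinar form of the Rab27 pair was thus not the higher one here.

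By gene TPM, the other 4 pairs changed sides between the libraries. Snap23 over Snap25 was 1.53 in replicate 2 (1.09 to 2.16) and 0.983 in replicate 1 (0.805 to 1.20). Over complete coding transcripts alone, Snap23 had 4.00 TPM and Snap25 4.05 TPM in replicate 2, and 9.57 and 10.5 TPM in replicate 1. On that measure Snap23 was not the higher one in either library. Vamp8 over Vamp2 was 1.33 in replicate 2 (1.10 to 1.60) and 0.803 in replicate 1 (0.697 to 0.923). Both intervals of that pair leave out equal levels, on opposite sides. Stx3 over Stx1a, the neuronal and islet syntaxin at 2.91 TPM in replicate 2 and 2.05 TPM in replicate 1, was 0.759 in replicate 2 (0.494 to 1.17) and 1.65 in replicate 1 (1.10 to 2.53). All counts of Stx1a, 43 in replicate 2 and 35 in replicate 1, were assigned to its retained-intron model Stx1a-205 of 2114 bases, and 0 to its complete coding transcript. Sytl1 over Sytl4, which encode the Rab27 effectors Slp1 of acinar granules and granuphilin of islets, was 1.98 in replicate 2 (1.53 to 2.57) and 0.949 in replicate 1 (0.700 to 1.28). Sytl1-203, annotated as a processed transcript, held 2.2 TPM of Sytl1 in replicate 2 and 1.93 TPM in replicate 1. The coding model Sytl1-201 was given 91.32 counts in replicate 2 and 4.9 in replicate 1, and Sytl1-202 was given 0 and 28.01. For these 4 pairs the data do not fix which form is higher, because the technical spread exceeds the difference in gene TPM.

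**Figure D3:**
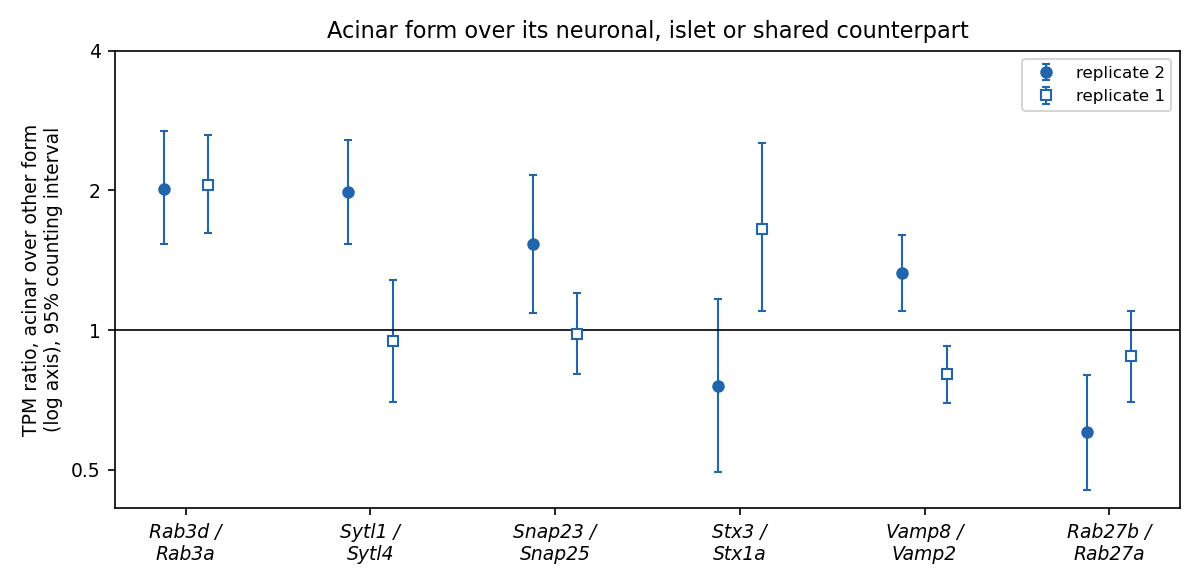
TPM of the acinar form over its counterpart (log axis; the line marks equal levels) in replicate 2 (filled circles, left) and replicate 1 (open squares, right), with exact 95% counting intervals, ordered by the mean. Rab3d over Rab3a (2.01 in replicate 2 and 2.05 in replicate 1) lies above the line in both libraries, Rab27b over Rab27a (0.602 and 0.879) lies below it in both, and the other 4 pairs lie on both sides.

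The 2 technical libraries were compared gene by gene to see how far these levels hold between them. Counts were scaled with TMM, which puts the median log2 ratio of replicate 2 over replicate 1 at -0.01 over 12452 tested genes (SD 0.80), and the counts of a gene in both libraries entered a two-sided exact binomial test with Benjamini-Hochberg adjustment over all of them. Calls needed an adjusted p below 0.05 together with a log2 ratio of at least 1 in size. This compares these libraries, not conditions, and holds counting error only. Of all tested genes 12.3% were called, 8.31% as higher and 4.00% as lower in replicate 2. All 10 genes were tested, 0 were called higher and 1, Snap25, was called lower, a count of 1 in 10 that does not set them apart from the share over all genes. Their median log2 ratio was -0.31.

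Snap25 had 63 counts in replicate 2 and 188 counts in replicate 1 and fell by 1.09 in log2 ratio (interval -1.53 to -0.68, adjusted p 7.20e-07 in the exact binomial test). The call was lost, at -0.89, when a trend on GC content and length was removed, and likewise in edgeR's exact test when a dispersion of 0.1 was assumed. The islet markers beside it did not move as one: of 17 tested, Ppy was called higher at 2.07, Gcg, Isl1 and Pax6 were called lower at -1.19, -1.07 and -1.06, and the median was -0.05. None of the 8 tested neuron and glia markers was called, at a median of -0.27 with all 8 below 0. The part of these cells in the Snap25 result was not tested. Of the other marker lists, acinar markers had a median of 0.46 with Cela1 called higher at 1.18, endothelium markers -0.19 with Tie1 called higher at 1.04 and Emcn lower at -1.01, and the duct, leukocyte, mast cell and smooth muscle markers had medians of 0.01, -0.08, -0.14 and -0.59 with no call.

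Snap23 and Vamp2 had ratios of nearly that size without reaching the size asked for. Snap23 had a log2 ratio of -0.87 (interval -1.26 to -0.51, adjusted p 9.87e-06), on 84 counts in replicate 2 and 216 counts in replicate 1. Vamp2 had a log2 ratio of -0.83 (-1.02 to -0.64, adjusted p 2.24e-17 in the same exact test), on 317 counts in replicate 2 and 786 counts in replicate 1. Both were called with library totals in place of TMM, which lowers all ratios by 0.54, at -1.41 for Snap23 and -1.36 for Vamp2. The other 7 genes lay between -0.55 for Syt1 and 0.15 for Stxbp2, with adjusted p between 0.177 and 0.892 in the exact binomial test. The direction of Rab3d, Rab27a and Stxbp2 depended on the scaling or trend used.

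All 10 genes had a lower TPM in replicate 2, and so did 65.9% of the 12425 tested genes above 0 TPM in both libraries, whose median log2 TPM ratio was -0.30. TPM is a share of the library, and the shares of Gm42418 and the mitochondrial genes differed as given above.

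A trend of the ratios between the libraries was fitted on GC content and transcript length together, and a trend on GC content alone was not fitted. The fitted trend on GC content and length of the dominant transcript stood at -0.35 for Snap23 (40.2% GC) and at -0.20 for Snap25 (43.4% GC). It stood at 0.61 for Stxbp2 (58.0% GC) and at 0.38 for Vamp8 (55.1% GC). For Stxbp2 the dominant transcript by TPM is Stxbp2-214, of 219 bases, given 5.09 counts in replicate 2 and 5.97 in replicate 1. The GC content and trend value of Stxbp2 therefore describe that short model. Relative to the fitted trend, Snap23 came to -0.53, Snap25 to -0.89, Stxbp2 to -0.46 and Vamp8 to -0.54. For Vamp2, at 53.2% GC, the trend stood at 0.16, and Vamp2 came to -0.99, the lowest of the 10 after the trend. Rab3d lay on the trend, at -0.01. Syt1 came to -0.34, Stx3 to -0.17 and Rab27b to -0.05, and Rab27a, the only gene above the trend, to 0.09. Lying below the trend was thus not particular to the GC-rich genes. A trend on length alone used the mean effective length of each gene, not the length of the dominant transcript. For Stxbp2 that effective length was 769 bases in replicate 2 and 768 bases in replicate 1. With this trend removed, Snap23 came to -0.92, Snap25 to -1.13, Stxbp2 to -0.10 and Vamp8 to -0.42. The fits differ in the length used as well as in GC content, so the part of GC content cannot be read from them.

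**Figure D4:**
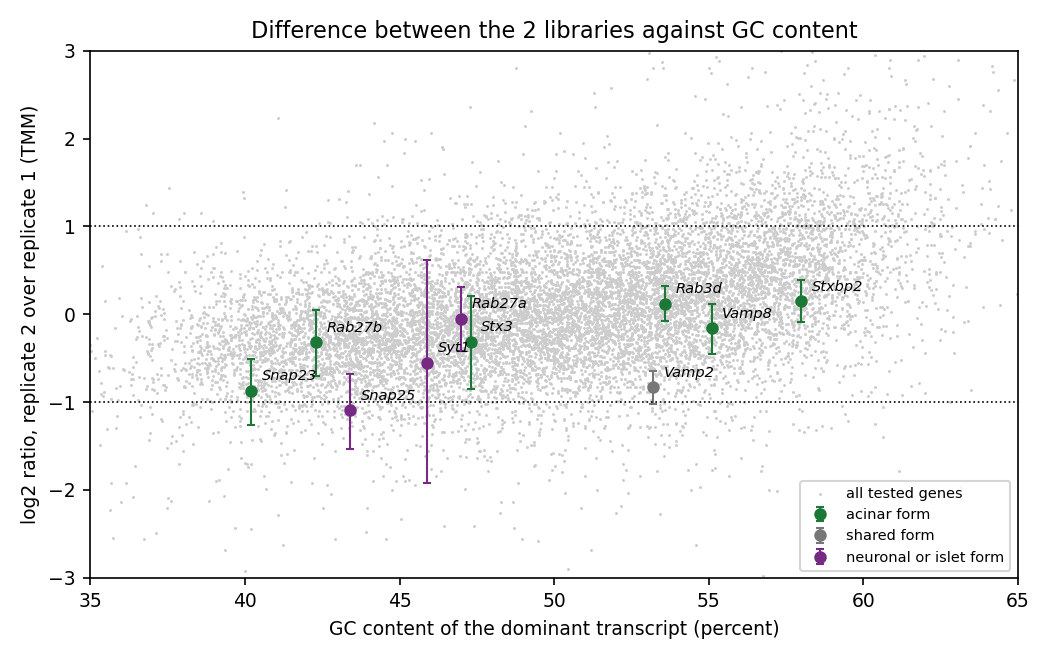
The log2 ratio of replicate 2 over replicate 1 (TMM scaled) against the GC content of each gene's dominant transcript in percent; grey points are tested genes, coloured points the 10 genes with 95% counting intervals, and dotted lines mark a log2 ratio of 1 in size. Snap25 (-1.09) lies under the lower line, and Vamp2 (-0.83 at 53.2% GC) lies above that line. A shift of the tested genes with GC content alone was not tested. Of the tested genes, 251 lie outside the axes or have no GC value.

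More of the secretory machinery was described through 99 further genes in 7 lists, of which 97 were matched, 71 were at 1 TPM or more in both libraries and 85 were tested. Of the tested ones 4 were called higher and 3 lower in replicate 2, or 8.24%, beside 12.3% over all genes. Whether these shares differ was not tested.

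Of 14 other Rab3 and secretory Rab GTPases, 13 were at 1 TPM or more in both libraries. Rab11a of recycling endosomes led with 29.55 TPM in replicate 2 and 35.04 TPM in replicate 1, followed by the early secretory Rabs Rab2a (22.46 and 34.05 TPM) and Rab1a (16.49 and 33.6 TPM). All 14 were tested, with a median log2 ratio of -0.33. Rab6a of the Golgi, with 148 counts in replicate 2 and 425 counts in replicate 1, was the only one called, at -1.04. Rab3d was lower than these 3 leading Rabs in both libraries.

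Of 26 regulators and effectors of Rabs, 17 were at 1 TPM or more in both libraries, and 24 were tested at a median log2 ratio of 0.01. Among them were Gdi2, encoding a GDP dissociation inhibitor that returns Rabs from membranes (24.21 TPM in replicate 2 and 36.96 TPM in replicate 1) and Rabggtb (11.53 and 14.41 TPM), a subunit of the enzyme that attaches the lipid anchor of Rabs. Called higher in replicate 2 were Sytl1 at 1.33 (130 and 72 counts), Madd at 1.13, an exchange factor for Rab3 and Rab27, Tbc1d10a at 1.35, a Rab27 GTPase-activating protein, and Unc13d at 2.44, the Rab27 effector Munc13-4, on only 17 counts in replicate 2 and 4 counts in replicate 1. Exph5, a Rab27 effector, was called lower at -1.14, on 14 counts in replicate 2 and 44 counts in replicate 1. These are 5 of 24 tested genes, against 12.3% called over all genes.

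All but 1 of the 16 other syntaxin, SNAP and related Q-SNARE genes were at 1 TPM or more in both libraries, with a median log2 ratio of 0.02. The Golgi syntaxin Stx5a led with 36.6 TPM in replicate 2 and 42.73 TPM in replicate 1. Stx4a of the basolateral plasma membrane had 16.38 TPM and 10.45 TPM in these libraries, and Vti1b of endosomes 15.59 TPM and 9.53 TPM. Stx3 was lower than all 3 in both libraries. Vti1a was called lower at -1.34, on 25 counts in replicate 2 and 90 counts in replicate 1.

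The other 4 lists held no call. The 6 matched VAMP family genes had a median log2 ratio of 0.08 and were led by Ykt6 (8.98 TPM in replicate 2 and 12.66 TPM in replicate 1), Sec22b (10.27 and 8.63 TPM) and Vamp4 (5.56 and 10.01 TPM), all of the early secretory or Golgi pathway and all under Vamp8 and Vamp2. Among 15 Sec1/Munc18 proteins and SNARE regulators, 9 were at 1 TPM or more in both libraries and the median of the 12 tested was -0.21. Tpd52, a protein of acinar secretory and endolysosomal membranes, had 14.47 TPM in replicate 2 and 13.12 TPM in replicate 1, Stxbp3, encoding Munc18-3, had 5.76 and 9.31 TPM, and Unc13b, encoding the priming factor Munc13-2, had 6.41 and 8.41 TPM. The 4 genes of SNARE disassembly, at a median of -0.11, were led by Napa, which encodes alpha-SNAP, with 31.02 TPM in replicate 2 and 39.78 TPM in replicate 1. The ATPase gene Nsf had 3.29 TPM and 4.83 TPM, and Napg 3.48 TPM and 4.64 TPM.

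Of 16 other synaptotagmins 7 were at 1 TPM or more in both libraries, and the 9 tested had a median log2 ratio of -0.08. Syt13 led with 10.41 TPM in replicate 2 and 9.42 TPM in replicate 1, then Syt7, a high-affinity calcium sensor of endocrine granules, with 2.91 and 4.22 TPM, and Syt3 with 2.41 and 4.13 TPM. Each of these was above Syt1 in both libraries with no overlap between the ranges.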

How the data were processed

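Per the deposited README files, values rest on mm10 and GENCODE M4; the aligner, the quantifier and any use of strand are unstated in the sources used here. The authors deposited, per the file headers, an expected count per gene and transcript, TPM, effective lengths, and a posterior mean TPM and SD of the count, which are taken as signal values. The deposited percent of each isoform was recomputed from transcript TPM. Symbols, positions and sequences came from GENCODE M21 on GRCm38, and 42462 of 43346 gene identifiers matched. Spike-in and numbered rows held 0 counts and were left out.

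Expected counts were rounded to whole numbers. The exact binomial test used TMM sizes from edgeR 4.0.16 in R 4.3.3, genes with a mean of 10 counts or more and 0.5 added to both counts for ratios, since 1 library on each side leaves edgeR's quasi-likelihood model no residual degrees of freedom. It was tested on simulated Poisson counts that hold counting error only, so this check does not cover any further spread between these libraries. Pair intervals are Clopper-Pearson intervals at 95%. Alternatives covered scaling (library totals, DESeq2 1.42.0 size factors), filters, posterior means, trends on length and GC content (cubic polynomials), pseudocounts, lengths and single libraries. Named are the 10 genes, the pairs, and from each list the 3 most abundant and all called genes (of the marker lists, mainly the called ones). The genes, pairs and lists were chosen with earlier results of these data known.

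The labels name the RNeasy Lipid Tissue kit for extraction and a size range of 350-450 with no unit. Some genes of these families are not reported here.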

Additional observations from a re-analysis of the deposited data

How the results depend on the processing

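Scaling and trend decided how many of the 10 genes were called between the libraries: 1 as reported, 3 with library totals (Vamp2, Snap23, Snap25), 2 with totals without mitochondrial genes, Gm42418, Gm26917 and Lars2 (Snap23, Snap25), and 0 with an edgeR dispersion of 0.1 or after the GC and length trend. Over all genes library totals gave 2945 calls in place of 1533, with 342 higher and 2603 lower in place of 1035 and 498, the edgeR dispersion gave 45, and the GC and length trend gave 959 (461 higher and 498 lower). Totals without those genes gave 787 higher and 788 lower, and a minimum mean of 50 counts gave 649 calls. Ratios of replicate 2 over replicate 1 changed sign for Rab3d (-0.42 with library totals, -0.01 with totals without those genes and -0.01 after the GC and length trend), for Stxbp2 (-0.38 with library totals, -0.10 after the length trend and -0.46 after the GC and length trend) and for Rab27a (0.09 after the GC and length trend). The acinar share came to 91.9% with Vamp2 counted as acinar.

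The longest coding length and the restriction to complete coding transcripts were chosen after seeing the data. Per base of the longest complete coding transcript, the log2 pair ratios came to -0.09 for Snap23 over Snap25, -1.11 for Vamp8 over Vamp2, 1.17 for Rab3d over Rab3a and -1.21 for Rab27b over Rab27a, and the acinar share to 55.0%. For Vamp8 this length is that of a model holding 3.66% of its TPM in replicate 2 and 8.02% in replicate 1. Over complete coding transcripts, the ratios were -0.08 for Snap23, 1.06 for Rab3d and -0.16 for Sytl1 over Sytl4, the share was 60.1%, and Stx3 over Stx1a had no value because Stx1a had 0 TPM there. Of the alternatives listed from the start, posterior means gave -0.19 for Stx3 over Stx1a and 1.00 for Rab3d, and annotated lengths gave -0.11 for Vamp8 and 1.14 for Rab3d.

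With 1 library left out, the pair ratios ranged between -0.02 and 0.62 for Snap23, -0.40 and 0.73 for Stx3, -0.32 and 0.41 for Vamp8, -0.08 and 0.99 for Sytl1, 1.01 and 1.04 for Rab3d and -0.73 and -0.19 for Rab27b, and the share between 64.5% and 75.1%. Between the libraries themselves none can be left out. No paired analysis was possible because both libraries form 1 group. Low counts limit Syt1 most.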

Other observations

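Some genes of granule secretion outside the named rule were picked after their values were seen, for their known roles. Rab26, a granule Rab of acinar cells, had 18.32 TPM in replicate 2 and 16.38 TPM in replicate 1, above Rab3d in both libraries, with a log2 ratio of 0.46. Cplx2, a complexin that clamps SNARE complexes, had 4.92 TPM in replicate 2 and 7.13 TPM in replicate 1, whereas its neuronal relative Cplx1 had 0.26 TPM and 0.73 TPM. Rph3al, which encodes the Rab3 and Rab27 effector Noc2, had 5.23 TPM in replicate 2 and 6.73 TPM in replicate 1, while Rph3a, encoding rabphilin, was listed at 0 in both. Dnajc5, encoding the granule chaperone cysteine string protein, had 5.17 TPM in replicate 2 and 5.96 TPM in replicate 1.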
